A study of Mus musculus with 24 samples.

Results

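Collagens are the proteins that give ovarian tissue its fibres and its basement membranes, and each collagen chain has its own gene. The genes described here are the rows of the deposited count table whose symbol is Col, a number, the letter a and a number, with at least 10 counts in at least 4 libraries. That rule took 41 of 55487 genes. They fall into 11 genes of fibrillar chains, 6 of basement membrane (type IV) chains, 7 of FACIT chains (collagens that sit on the surface of fibrils) and 17 others. The table holds 44 such symbols. Col9a1 and Col19a1 reached 10 counts in 2 libraries each and Col10a1 in 0, so these 3 stayed outside. Just inside lay Col2a1, with 1 to 50 counts per library. The rule used levels over all libraries without regard to group, and all 41 genes also passed the filter of the test.

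RNA came from whole mouse ovaries with or without a conditional deletion of Nr5a1. Its product SF-1 (steroidogenic factor 1) is a nuclear receptor needed for the gonads to form. Mice of the deleted group (cKO) were Nr5a1 f/f with Amhr2-cre Tg/+, and the controls were littermates with Nr5a1 f/f and Amhr2-cre +/+. All groups thus carried 2 floxed Nr5a1 alleles, and genotype cannot be told apart from carrying cre. The cre follows Amhr2, which encodes a receptor for anti-Müllerian hormone, so deletion was aimed at cells that use that gene. Which cells lost Nr5a1 was not measured here. Ovaries were taken on embryonic day 17.5 (ED17.5) and postnatal days 1 and 4 (PND1, PND4), with 4 libraries in each of the 6 groups. Each library came from the pooled RNA of 3 to 5 mice, or of 5 mice at ED17.5. The labels do not say whether pools of a group share a litter, so p-values measure the spread between these pools.

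A collagen molecule is a triple helix of 3 chains that may be alike or different. Fibrillar chains (types I, II, III, V, XI, XXIV and XXVII) are cut outside the cell and pack into fibrils. Type IV chains form the sheet of basement membranes, which in the ovary lies under the surface epithelium, around germ cell cysts and follicles and around vessels. FACIT collagens link fibrils to their surroundings, type VI collagen forms beaded filaments around cells, and further types cross the cell membrane or carry long sugar chains. Before export, chains are hydroxylated, given sugars and folded by enzymes and chaperones in the endoplasmic reticulum. Outside the cell, lysyl oxidases crosslink them.

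Total counts lay between 11361365 and 13641263 per library. Levels are given as counts per 1000000 (CPM), scaled by trimmed mean of M-values. In each sentence that lists a group, libraries stand in the order of their replicate numbers, which are 2 to 5 for PND4 controls and 1 to 4 elsewhere. Nr5a1, whose gene-level counts may include exons that cre leaves in place, was at 152, 149.5, 120 and 167 CPM in ED17.5 controls and at 73.1, 62.3, 165 and 62.1 CPM in ED17.5 cKO ovaries. At PND1 and PND4 it was at 113 to 152 CPM in controls and 62.5 to 82.3 CPM in cKO. It fell by 0.70, 0.98 and 0.99 on the log2 scale at the 3 ages (edgeR adjusted p 0.0294, 0.00301 and 0.00315). The ED17.5 fold change includes cKO replicate 3 at 165 CPM, while the other cKO libraries of that age held 62.1 to 73.1 CPM. The library labelled ED17.5 cKO replicate 3 is therefore at the control level for Nr5a1, and the source of that Nr5a1 RNA was not tested. The Amhr2 level of this library, 57.9 CPM, was like that of the other cKO libraries (54.6 to 72.1 CPM, against 252 to 319.7 CPM in controls). That library also held 323.6 CPM of Amh, 441 CPM of Cyp17a1 and 36.1 CPM of the Y-linked gene Ddx3y, for which the remaining 7 libraries of that age held 0.319 to 1.46, 0.717 to 3.3 and 0.0819 to 3 CPM. The highest of these Ddx3y values was in ED17.5 cKO replicate 1, and the other 6 libraries held 0.0819 to 0.545 CPM. Summed markers of Sertoli cells of the testis and of Leydig and steroidogenic cells were 550 and 1341 CPM in the library labelled ED17.5 cKO replicate 3. They were 24.9 to 31.5 and 25.7 to 35.6 CPM in the other cKO libraries of that age. Amhr2 was lower in cKO at each age, with log2 fold changes of -2.225, -2.225 and -2.143 (edgeR adjusted p 2.31e-11, 1.47e-11 and 6.3e-12). The part of that fall in the collagen results was not tested. For collagen genes, calls that changed without the library labelled ED17.5 cKO replicate 3 are given both ways. Among the controls of its age, ED17.5 control replicate 3 was the highest for 30 of the 41 genes, and PND4 control replicate 5 the lowest for 27.

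Most collagen genes were higher in cKO than in control ovaries at all 3 ages. In a fit of all 24 libraries (edgeR quasi-likelihood test, p adjusted by Benjamini-Hochberg over 17435 genes, threshold 0.05), 27 of 41 collagen genes were higher and 1 lower at ED17.5. At PND1 27 were higher and 1 lower, and at PND4 24 were higher and 3 lower. Over all genes tested, the share called higher was 11.1%, 13.2% and 12.6% at the 3 ages, and the share called lower 12%, 10.7% and 10.3%. The median log2 fold change of the 41 genes was 0.66, 0.88 and 0.57 at the 3 ages, and that of all genes -0.0072, -0.02 and -0.0015. Without the library labelled ED17.5 cKO replicate 3, 25 were higher and 1 lower at ED17.5, where 9.45% and 11.2% of 17686 genes were called. At PND1 the lower calls then numbered 4 (Col4a3, Col4a4, Col9a3 and Col12a1), with 27 higher. In 21 genes every cKO library lay above every control at ED17.5, in 29 at PND1 and in 23 at PND4, against 10.7%, 14.8% and 12.9% of all genes. In 1, 3 and 3 genes every cKO library lay below every control, against 13.1%, 12.8% and 11.1% of all genes. The same 22 genes were higher at all 3 ages (8 fibrillar, 2 FACIT and 12 others), 1 gene was lower at all 3, and 8 were called at no age.

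**Figure D1:**
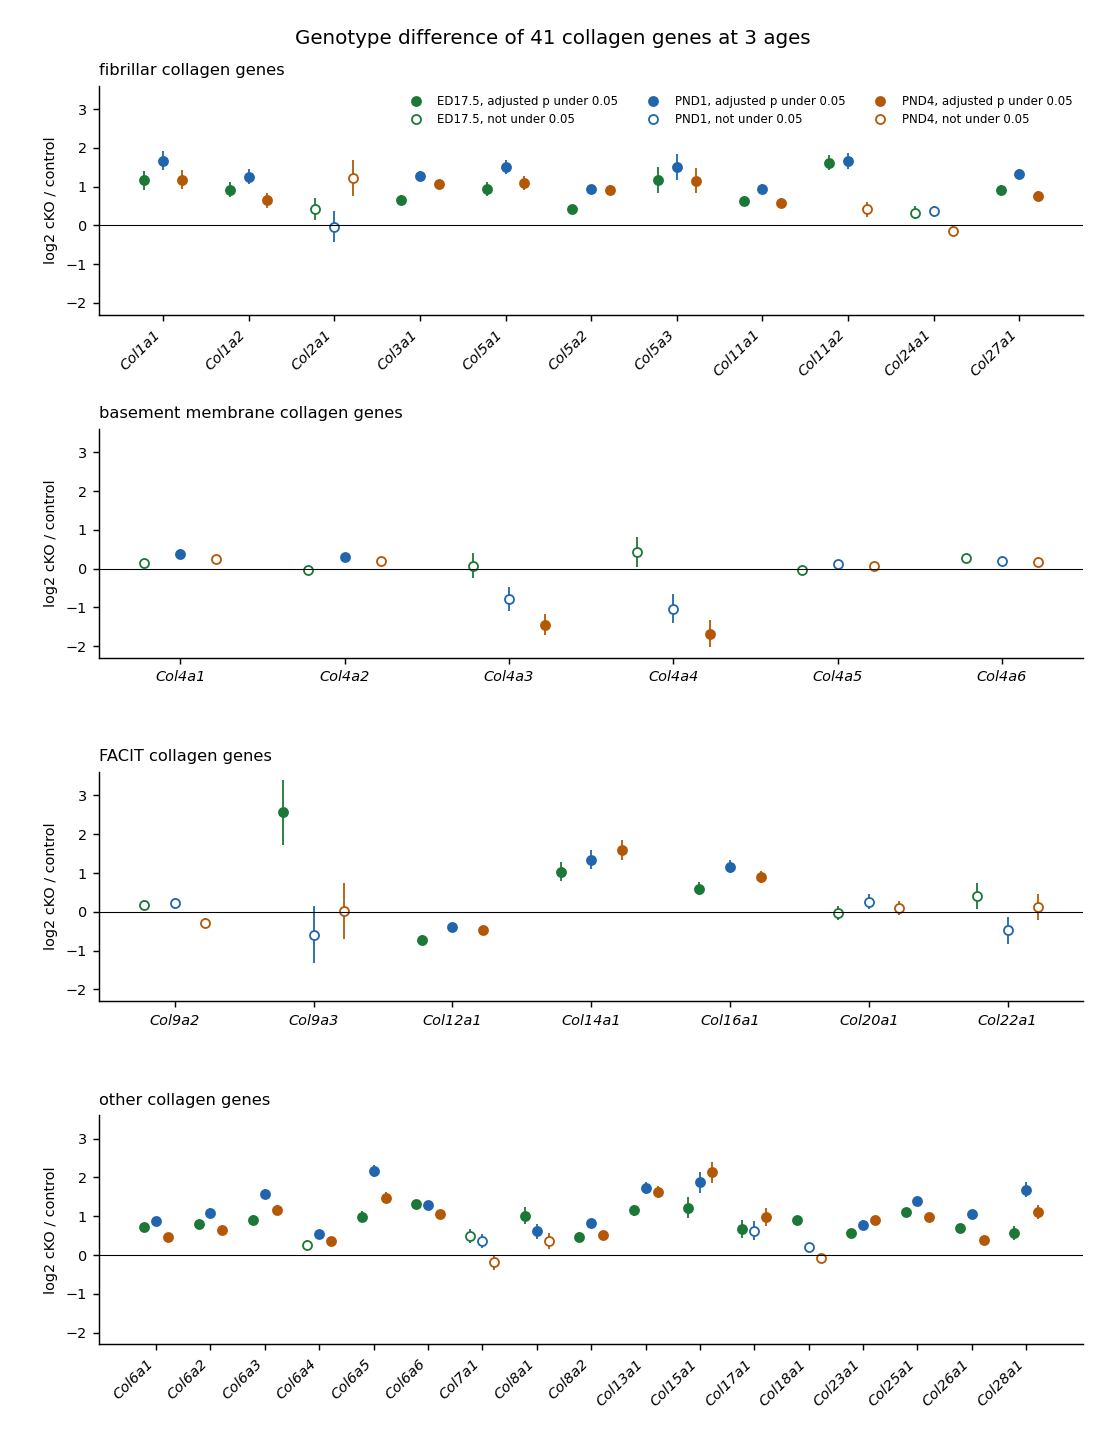
Log2 fold change (cKO against control, n = 4 libraries each) of the 41 collagen genes at 3 ages, with standard errors; filled points passed the edgeR test at an adjusted p under 0.05. Fibrillar and other genes lie mostly above 0 (medians at PND1 of 1.28 and 1.05), and basement membrane genes lie between -1.68 and 0.43. The upper value is Col4a4 at ED17.5, which was at -0.42 without the library labelled ED17.5 cKO replicate 3.

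Most fibrillar genes rose: 9 of 11 were higher at ED17.5, 9 at PND1 and 8 at PND4, and 0 were lower. Their median log2 fold changes were 0.91, 1.28 and 0.92. Col1a1 (ENSMUSG00000001506, chr11:94936224-94953042, plus strand), which encodes the chain that makes up most of type I collagen, was at 1452, 1154, 2264 and 1161 CPM in ED17.5 controls and 3516, 3131, 3392 and 3432 CPM in cKO. At PND1 the values were 725, 763, 627 and 670.1 CPM in controls and 2466, 1899, 2238 and 2279 CPM in cKO. At PND4 they were 1129, 1426, 1739 and 570.2 CPM in controls and 3086, 2672, 2615 and 2664 CPM in cKO. The genotypes did not overlap at any age, and the controls scattered more than the cKO libraries at ED17.5 and PND4. Fold changes on the log2 scale were 1.16 ± 0.24, 1.67 ± 0.24 and 1.18 ± 0.24 (edgeR adjusted p 0.00148, 3.1e-05 and 0.00112), or 2.23-, 3.19- and 2.27-fold. The exact two-sided permutation p over the 70 assignments of 4 against 4 was 0.0286 at each age, the smallest the design allows. Values after ± are standard errors of the log2 fold change. In whole-organ RNA, a change in the number of cells of a type and a change in RNA per cell cannot be told apart. CPM are shares of a library, so fewer cells of other types can also raise them.

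Col3a1 (ENSMUSG00000026043, chr1:45311538-45349706, plus strand), the chain of type III collagen of soft connective tissue, was the collagen gene with the highest level per length in controls. It was at 3924, 3655, 5405 and 3784 CPM in ED17.5 controls and 6916, 6920, 6381 and 6214 CPM in cKO. PND1 values were 2912, 2925, 2797 and 2680 CPM in controls and 7188, 6352, 6991 and 7022 CPM in cKO, and at PND4 3452, 3624, 3839 and 2308 CPM in controls and 6728, 6803, 7099 and 6926 CPM in cKO. The cKO libraries reached nearly the same level at all 3 ages, while control levels were highest at ED17.5. In log2 units the fold changes were 0.66 ± 0.12, 1.28 ± 0.12 and 1.06 ± 0.12 (edgeR adjusted p 0.000196, 1.9e-08 and 3.44e-07). The 250 bases before its start (chr1:45311288-45311537, GRCm38.p6, plus strand, RefSeq) are shown as the window of the most abundant member, with TATAAA in capitals:
Col3a1: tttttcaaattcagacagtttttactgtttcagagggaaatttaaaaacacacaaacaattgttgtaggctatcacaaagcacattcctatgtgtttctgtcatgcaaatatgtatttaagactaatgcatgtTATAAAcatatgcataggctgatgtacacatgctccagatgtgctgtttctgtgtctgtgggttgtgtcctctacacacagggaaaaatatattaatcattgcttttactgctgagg

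Col1a2, the other type I chain, rose by 0.92, 1.25 and 0.64 on the log2 scale (edgeR adjusted p 0.00145, 5.21e-05 and 0.0187). Type V chains, which start and thin fibrils of type I, rose as well. Col5a1 rose by 0.93, 1.5 and 1.1, Col5a2 by 0.43, 0.93 and 0.92, and the scarce Col5a3 by 1.17, 1.51 and 1.16. Col27a1, a fibrillar chain known from cartilage, rose by 0.91, 1.33 and 0.75. Col5a2 and Col5a3 overlapped between genotypes at ED17.5; the other genes of this paragraph did not overlap at any age.

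Type XI chains form fibrils with type II in cartilage and with type V elsewhere. Col11a2 (ENSMUSG00000024330, chr17:34039437-34066685, plus strand) was at 4.37, 4.1, 5.14 and 4.02 CPM in ED17.5 controls and 16.9, 15.9, 9.65 and 11.7 CPM in cKO. On PND1 it stood at 3.94, 4.68, 3.03 and 2.59 CPM in controls and 9.53, 9.56, 13.4 and 12.6 CPM in cKO, and at PND4 at 4.54, 7.05, 6.09 and 6.55 CPM in controls and 6.36, 8.71, 7.54 and 9.66 CPM in cKO. The lowest cKO value at ED17.5 came from the library labelled replicate 3, and at PND4 the genotypes overlapped. The log2 fold changes were 1.62 ± 0.20 and 1.66 ± 0.20 at the first 2 ages (edgeR adjusted p 1.5e-06 and 8.67e-07) and 0.41 ± 0.20 at PND4 (adjusted p 0.145). Col11a1 (ENSMUSG00000027966, chr3:114030540-114220718, plus strand) was at 27.7 to 41.2 CPM in ED17.5 controls and 42.9 to 60.9 CPM in cKO, at 23.2 to 25.7 and 40.7 to 50.6 CPM at PND1, and at 58.7 to 84.7 and 86.4 to 126 CPM at PND4. It rose without overlap at each age, by 0.63, 0.94 and 0.57 (edgeR adjusted p 0.00136, 1.54e-05 and 0.00206). The other two fibrillar genes were called at no age. Col24a1 (ENSMUSG00000028197, chr3:145292472-145552011, plus strand) had log2 fold changes of 0.33 ± 0.17, 0.36 ± 0.15 and -0.13 ± 0.15 (edgeR adjusted p 0.165, 0.0848 and 0.594), and without ED17.5 control replicate 3 the ED17.5 value was 0.53 (adjusted p 0.0182). Without PND1 control replicate 2 the PND1 value was 0.46 (edgeR adjusted p 0.0383). Col2a1, the main chain of cartilage fibrils, was at 0.0826 to 4.05 CPM over all libraries, with log2 fold changes of 0.43 ± 0.28, -0.034 ± 0.40 and 1.22 ± 0.46 (edgeR adjusted p 0.299, 0.968 and 0.0594).

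SF-1 is known to bind AAGGTCA, which reads on the opposite strand as TGACCTT, so the 250 bases before the start of each member were searched for it on both strands. RefSeq promoter windows were found for 32 of the 41 genes (34 windows). The letters occurred in 4 of 34, in Col11a1, Col24a1, Col7a1 and Col23a1, and in 4.08% of 32851 windows of all genes. Col11a1 and Col23a1 were higher in cKO at all 3 ages, and Col24a1 and Col7a1 were called at none. The TATA box TATAAA was in 4 of 34 windows (12.4% of all), CCAAT in 12 (33.8%) and GGGCGG in 22 (32.7%). A match says only that these letters are present. The 4 windows that hold AAGGTCA are printed 5′ to 3′ on the strand of the gene (GRCm38.p6, RefSeq), with the matches to the 4 motifs on either strand in capitals; they lie at chr3:114030290-114030539 (plus strand), chr3:145292222-145292471 (plus), chr9:108953336-108953585 (plus) and chr11:51289670-51289919 (plus).
Col11a1: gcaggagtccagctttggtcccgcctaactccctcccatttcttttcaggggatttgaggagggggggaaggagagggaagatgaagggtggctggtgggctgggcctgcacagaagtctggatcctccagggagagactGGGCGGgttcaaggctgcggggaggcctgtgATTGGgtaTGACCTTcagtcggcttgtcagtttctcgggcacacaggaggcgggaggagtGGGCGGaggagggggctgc
Col24a1: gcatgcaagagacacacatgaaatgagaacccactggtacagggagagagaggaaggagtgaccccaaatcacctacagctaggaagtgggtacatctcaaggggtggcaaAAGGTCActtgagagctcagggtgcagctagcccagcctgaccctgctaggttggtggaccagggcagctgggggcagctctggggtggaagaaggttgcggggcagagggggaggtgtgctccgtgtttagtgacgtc
Col7a1: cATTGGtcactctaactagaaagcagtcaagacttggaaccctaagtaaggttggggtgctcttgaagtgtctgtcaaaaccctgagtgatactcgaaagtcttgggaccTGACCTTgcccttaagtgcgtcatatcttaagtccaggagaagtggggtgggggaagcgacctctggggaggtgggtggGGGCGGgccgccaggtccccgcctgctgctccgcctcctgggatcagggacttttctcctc
Col23a1: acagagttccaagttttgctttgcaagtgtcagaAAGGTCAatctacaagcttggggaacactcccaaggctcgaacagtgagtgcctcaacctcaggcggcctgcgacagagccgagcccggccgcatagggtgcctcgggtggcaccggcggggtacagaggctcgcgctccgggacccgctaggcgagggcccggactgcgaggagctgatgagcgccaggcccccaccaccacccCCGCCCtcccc

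Basement membrane chains did not follow the fibrillar genes. None of the 6 was called at ED17.5, 2 were higher at PND1 and 2 were lower at PND4, and the median log2 fold changes were 0.11, 0.15 and 0.12. Without the library labelled ED17.5 cKO replicate 3 the ED17.5 median was -0.091, with 1 gene positive and 5 negative in place of 4 and 2. The calls then numbered 2 higher and 2 lower at PND1, and 1 higher and 2 lower at PND4. Col4a1 (ENSMUSG00000031502, chr8:11198423-11312826, minus strand) and Col4a2 encode the chains of the common type IV molecule, and their genes lie head to head on chromosome 8 with exons that overlap by 22 bases. Col4a1 was at 773, 682, 757 and 762 CPM in ED17.5 controls and 776, 738, 1078 and 714 CPM in cKO. The single high value was the library labelled replicate 3, and the log2 fold change was 0.15 ± 0.11 with it and -0.0066 without it. At PND1 Col4a1 was at 997, 962, 1020 and 935 CPM in controls and 1282, 1170, 1249 and 1412 CPM in cKO, without overlap, and at PND4 at 1259, 1075, 1243 and 929 CPM in controls and 1469, 1393, 1254 and 1200 CPM in cKO, with overlap. The log2 fold change was 0.39 ± 0.11 at PND1 (edgeR adjusted p 0.00892) and 0.24 ± 0.11 at PND4 (adjusted p 0.116, and 0.0401 without the library labelled ED17.5 cKO replicate 3). Col4a2 was at 610.2 to 696 CPM in PND1 controls and 762 to 873 CPM in cKO, a log2 fold change of 0.30 ± 0.092 (edgeR adjusted p 0.0176). Leaving out PND1 control replicate 4 or PND1 cKO replicate 4 ended that call (edgeR adjusted p 0.0649 and 0.0605). With no filter on low counts neither gene was called at PND1 (edgeR adjusted p 0.0517 for Col4a1 and 0.0564 for Col4a2). Col4a5 and Col4a6, the head-to-head pair on the X chromosome with 1308 bases between them, were called at no age, with log2 fold changes from -0.047 to 0.26.

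Col4a3 (ENSMUSG00000079465, chr1:82586921-82722059, plus strand) and Col4a4 (ENSMUSG00000067158, chr1:82448423-82586849, minus strand) encode chains of the tighter network found in the glomerulus and in other specialised membranes, where they assemble with the Col4a5 chain. Col4a4 was at 83.8, 67.3, 70.8 and 55.7 CPM in PND4 controls and 27.5, 23.3, 16.2 and 19.9 CPM in cKO. Col4a3 was at 25.8, 19.8, 19.6 and 17.9 CPM in PND4 controls and 9.74, 9.16, 5.8 and 5.75 CPM in cKO. For both genes every cKO library lay below every control at that age. Fold changes on the log2 scale were -1.68 ± 0.35 for Col4a4 (edgeR adjusted p 0.00133) and -1.45 ± 0.28 for Col4a3 (adjusted p 0.0004). Exons of Col4a3 overlap those of C430014B12Rik, a processed transcript on the other strand, for 563 bases (5.65% of Col4a3 exons). Whether reads were counted by strand is not given in the sources used here. At PND1 Col4a4 was at 16.2, 25.5, 20.4 and 20.4 CPM in controls and 9.86, 7.23, 11.5 and 11.7 CPM in cKO, and Col4a3 at 6.33, 8, 5.55 and 6.17 CPM in controls and 3.84, 3.41, 4.28 and 3.53 CPM in cKO. The genotypes did not overlap there either, with log2 fold changes of -1.03 ± 0.37 (edgeR adjusted p 0.0503) and -0.79 ± 0.30 (0.0614). Without the library labelled ED17.5 cKO replicate 3, whose values enter the spread shared by all ages, both passed the test at PND1 (edgeR adjusted p 0.000275 and 0.00438). At ED17.5 Col4a4 was at 9.13, 8.52, 6.23 and 12.3 CPM in controls and 6.72, 7.08, 28.2 and 6.53 CPM in cKO, with only that library high. Its log2 fold change was 0.43 ± 0.38 with the library and -0.42 without it (adjusted p 0.47 and 0.224). In controls Col4a4 rose by 1.19 ± 0.38 from ED17.5 to PND1 and by 1.75 ± 0.35 from PND1 to PND4 (edgeR adjusted p 0.0119 and 0.000797). The 2 genes lie head to head with 71 bases between their starts, and these bases (chr1:82586850-82586920, GRCm38.p6, shown on the minus strand, RefSeq), which hold none of the 4 motifs, are printed because both genes fell at PND4:
Col4a4 to Col4a3: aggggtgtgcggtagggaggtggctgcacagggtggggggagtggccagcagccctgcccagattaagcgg

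FACIT collagens moved in different directions. At ED17.5 3 of 7 were higher and 1 lower (2 and 1 without the library labelled replicate 3), and at PND1 and PND4 2 were higher and 1 lower. Col12a1 (ENSMUSG00000032332, chr9:79598991-79718831, minus strand), a FACIT chain of tendon and dense stroma, was the single collagen gene lower at all 3 ages. It was at 267, 248, 271 and 285 CPM in ED17.5 controls and 169, 169, 149 and 165 CPM in cKO. At PND1 levels were 209, 302, 269.8 and 293 CPM in controls and 212, 174, 215 and 217 CPM in cKO, and at PND4 423, 385, 374 and 335 CPM in controls and 325, 298, 216 and 252 CPM in cKO. At PND1 the genotypes overlapped, through control replicate 1; at the other ages they did not. Col12a1 fell by 0.72, 0.39 and 0.47 on the log2 scale (SE 0.11 at each age, edgeR adjusted p 5.32e-05, 0.0119 and 0.00289), to 60.8%, 76.1% and 71.9% of the control mean. Leaving out PND1 cKO replicate 2 ended the call at that age (edgeR adjusted p 0.0515).

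Col14a1 (ENSMUSG00000022371, chr15:55307750-55520803, plus strand), the close relative of Col12a1 that also lies on type I fibrils, went the other way. It was at 71.6, 72.5, 178 and 69.4 CPM in ED17.5 controls and 172, 231, 213 and 186 CPM in cKO, and only control replicate 3 reached the cKO range. At PND1 it was at 50.9, 80.5, 46 and 65.1 CPM in controls and 148, 159, 139 and 170.5 CPM in cKO, and at PND4 at 59.2, 59.8, 62.5 and 40.6 CPM in controls and 163, 142, 176 and 194 CPM in cKO, without overlap. In log2 units the fold changes were 1.03 ± 0.25, 1.35 ± 0.26 and 1.6 ± 0.26 (edgeR adjusted p 0.00496, 0.000495 and 0.000106), and the first was not called when the ED17.5 libraries were fitted alone (adjusted p 0.0818). The per-length ratio of Col14a1 to Col12a1 was 0.792 ± 0.422 in controls and 2.68 ± 0.424 in cKO at ED17.5 (SD, n = 4), 0.49 ± 0.0892 and 1.65 ± 0.255 on PND1, and 0.317 ± 0.0433 and 1.39 ± 0.383 at PND4. Col16a1, a FACIT chain of many connective tissues, rose by 0.59, 1.17 and 0.90 (edgeR adjusted p 0.0113, 1.76e-05 and 0.000362). ED17.5 control replicate 3 was high for it too, at 283 CPM against 164 to 178 CPM in the other controls. The lowest cKO library of that age was at 280.1 CPM, so the genotypes overlapped. Col9a3 (ENSMUSG00000027570, chr2:180597790-180622189, plus strand), a type IX chain of cartilage, was at 5.14, 4.26, 5.69 and 3.51 CPM in ED17.5 controls and 5.42, 3.62, 99.6 and 2.23 CPM in cKO. Its call at ED17.5, a log2 fold change of 2.57 ± 0.84 (edgeR adjusted p 0.0333), rested on the library labelled replicate 3; without it the value was -0.32 (adjusted p 0.468). At PND1 Col9a3 was at 41.4, 23.4, 25.4 and 25.1 CPM in controls and 20.9, 14.5, 19.6 and 21.6 CPM in cKO, with every cKO library below every control; the log2 fold change was -0.59 ± 0.74 (edgeR adjusted p 0.636, and 0.0239 without the library labelled ED17.5 cKO replicate 3). Exons of Col9a3 overlap those of Tcfl5 on the other strand for 234 bases (6.07% of its exonic length), and whether reads were counted by strand is not given in the sources used here. Col9a2, Col20a1 and Col22a1 were called at no age. Col20a1 had log2 fold changes of -0.026, 0.27 and 0.10, and Col22a1 of 0.40, -0.48 and 0.11. Col9a2 had log2 fold changes of 0.18, 0.22 and -0.29, and without PND4 control replicate 5 the last was -0.46 (edgeR adjusted p 0.000631).

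**Figure D2:**
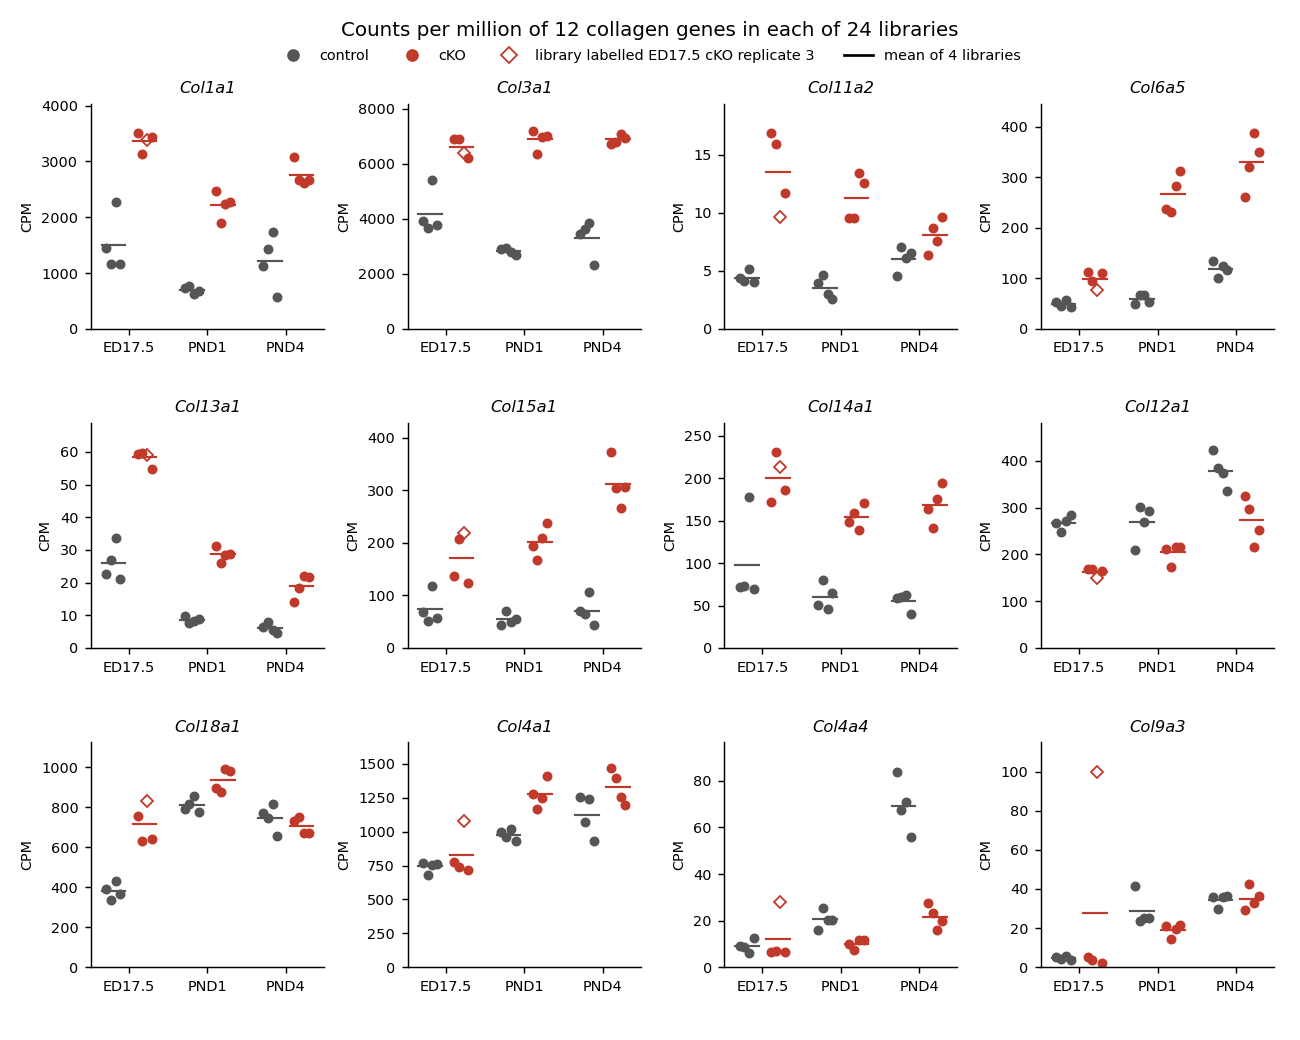
CPM of 12 collagen genes in each of the 24 libraries (points) by age and genotype, with the mean of 4 libraries (lines); each panel starts at 0. The open diamond is the library labelled ED17.5 cKO replicate 3, which lies apart in Col9a3 (99.6 CPM) and Col4a4 (28.2 CPM) and among the other cKO libraries in Col1a1 and Col3a1.

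Type VI collagen forms the beaded filaments that tie cells to the matrix. Col6a1 (ENSMUSG00000001119, chr10:76708792-76726168, minus strand) and Col6a2 encode the chains that every type VI molecule holds, and the third chain comes from Col6a3 or from Col6a4, Col6a5 or Col6a6. All 6 genes were higher in cKO at PND1 and PND4, and all but Col6a4 at ED17.5. Col6a1 was at 784, 743, 1074 and 771 CPM in ED17.5 controls and 1412, 1339, 1499 and 1334 CPM in cKO. PND1 values were 605, 759, 779 and 787 CPM in controls and 1328, 1255, 1439 and 1356 CPM in cKO, and at PND4 969.9, 985, 1129 and 826 CPM in controls and 1289, 1388, 1346 and 1331 CPM in cKO. Every cKO library lay above every control, and the log2 fold changes were 0.73 ± 0.10, 0.88 ± 0.10 and 0.45 ± 0.10 (edgeR adjusted p 8.87e-06, 4.18e-07 and 0.00154). Col6a2 rose by 0.80, 1.09 and 0.64, and Col6a3 by 0.92, 1.56 and 1.16.

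Col6a5 (ENSMUSG00000091345, chr9:105856078-105960643, minus strand) had the largest PND1 fold change of the 41 genes. It was at 53.5, 45.1, 57.1 and 43.9 CPM in ED17.5 controls and 112, 95.4, 77.5 and 111 CPM in cKO. On PND1 it stood at 50.0, 67, 67.5 and 53.4 CPM in controls and 238, 232, 283 and 313 CPM in cKO, and at PND4 at 134, 100.3, 124 and 117 CPM in controls and 261, 321, 388 and 349 CPM in cKO. Every cKO library lay above every control of its age, and both genotypes were highest at PND4. The log2 fold changes were 0.99 ± 0.14, 2.16 ± 0.15 and 1.47 ± 0.14, or 1.98-, 4.48- and 2.77-fold (edgeR adjusted p 2.84e-05, 5.03e-10 and 7.95e-08). Col6a6, Col6a5 and Col6a4 lie in this order on the same strand of chromosome 9, with 27917 and 28810 bases between them. Col6a6 was at 71 to 110.3, 80.4 to 90.0 and 104 to 125 CPM in controls of the 3 ages and 191 to 229, 190.1 to 222 and 224 to 241 CPM in cKO, rises of 1.3, 1.28 and 1.06 on the log2 scale. Col6a4 was at 15.4 to 21.7, 29.9 to 41.7 and 71.2 to 82.9 CPM in controls and 18.2 to 25.3, 46.6 to 58.9 and 86.4 to 108 CPM in cKO. Its log2 fold changes were 0.25 ± 0.12, 0.54 ± 0.11 and 0.35 ± 0.11 (edgeR adjusted p 0.132, 0.000612 and 0.0192). Leaving out control replicate 4, control replicate 5 or cKO replicate 1 ended the PND4 call (edgeR adjusted p 0.0525, 0.0609 and 0.0727), as did testing with no filter on low counts (0.0585). The differences in size between these neighbours were not tested.

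Type XV and XVIII collagens are the multiplexins, which carry sugar chains and lie at the outer face of basement membranes. Col15a1 (ENSMUSG00000028339, chr4:47208161-47313167, plus strand) was at 68.1, 51, 117 and 57.7 CPM in ED17.5 controls and 137, 208, 218 and 124 CPM in cKO. At PND1 levels were 44.1, 70.2, 49.9 and 55.9 CPM in controls and 193, 168, 208 and 238 CPM in cKO, and at PND4 69.5, 64.8, 107 and 43.8 CPM in controls and 372, 305, 267 and 307 CPM in cKO. At each age the genotypes stood apart. Fold changes on the log2 scale were 1.22 ± 0.27, 1.88 ± 0.28 and 2.13 ± 0.28, or 2.34-, 3.67- and 4.39-fold (edgeR adjusted p 0.00258, 3.69e-05 and 9.73e-06), and the PND4 rise was the largest of the 41 genes at that age. The 250 bases before its RefSeq start (chr4:47207762-47208011, GRCm38.p6, plus strand) hold none of the 4 motifs and are printed for that rise:
Col15a1: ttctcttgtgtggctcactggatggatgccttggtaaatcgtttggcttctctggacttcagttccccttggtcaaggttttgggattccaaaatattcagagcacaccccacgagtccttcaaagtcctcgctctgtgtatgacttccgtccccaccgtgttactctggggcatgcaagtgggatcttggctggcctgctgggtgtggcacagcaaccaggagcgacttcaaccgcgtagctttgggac

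Col18a1 (ENSMUSG00000001435, chr10:77052178-77166548, minus strand), the source of the fragment endostatin, was called higher at ED17.5 and at neither later age. It was at 393, 334, 432 and 364 CPM in ED17.5 controls and 757, 632, 832 and 639.5 CPM in cKO. At PND1 it was at 791, 815, 856 and 778 CPM in controls and 897, 879, 990.1 and 982 CPM in cKO, and at PND4 at 772, 745, 816 and 659 CPM in controls and 731, 753, 670.4 and 669.6 CPM in cKO. The genotypes were apart at ED17.5, close but without overlap at PND1, and overlapping at PND4. In log2 units the fold changes were 0.91 ± 0.086, 0.21 ± 0.085 and -0.083 ± 0.086 (edgeR adjusted p 3.1e-08, 0.0775 and 0.549), and with the PND1 libraries fitted alone the second passed the test (adjusted p 0.0237). In controls Col18a1 rose by 1.09 ± 0.087 from ED17.5 to PND1 (adjusted p 3.21e-10).

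Transmembrane collagens, whose chains cross the cell membrane, were mostly higher in cKO. Col13a1 (ENSMUSG00000058806, chr10:61838236-61979108, minus strand), found at cell junctions, was at 22.8, 26.9, 33.7 and 21.1 CPM in ED17.5 controls and 59.5, 59.8, 59.2 and 54.8 CPM in cKO. PND1 values were 9.94, 7.58, 8.36 and 8.84 CPM in controls and 31.3, 26.1, 28.4 and 28.8 CPM in cKO, and at PND4 6.36, 8.08, 5.49 and 4.63 CPM in controls and 14.1, 18.2, 22.1 and 21.7 CPM in cKO. Levels were lower at later ages in both genotypes, and cKO stayed above control at each. The log2 fold changes were 1.16 ± 0.14, 1.72 ± 0.15 and 1.62 ± 0.16 (edgeR adjusted p 1.5e-06, 7.79e-09 and 4.81e-08). Col23a1 rose by 0.56, 0.78 and 0.89, and Col25a1 by 1.1, 1.4 and 0.98. Col17a1, the collagen of hemidesmosomes, was scarce (1.99 to 7.87 CPM) and was called at ED17.5 (0.67 ± 0.24, edgeR adjusted p 0.0487, and 0.0871 without the library labelled cKO replicate 3) and PND4 (0.98 ± 0.24, adjusted p 0.0034). Both Col23a1 and Col17a1 overlapped between genotypes at ED17.5.

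The remaining genes are those of type VIII, VII, XXVI and XXVIII collagen. Col28a1 (ENSMUSG00000068794, chr6:7997808-8192617, minus strand), a scarce chain related to type VI, was at 2.76, 3.03, 3.04 and 2.31 CPM in ED17.5 controls and 4.53, 4.46, 3.72 and 3.82 CPM in cKO. On PND1 it stood at 3.62, 2.98, 3.18 and 4.25 CPM in controls and 10.1, 11.8, 11.3 and 12.1 CPM in cKO, and at PND4 at 3.22, 3.67, 3.52 and 4.98 CPM in controls and 5.18, 10.2, 8.04 and 9.49 CPM in cKO. The genotypes did not overlap at any age. Fold changes on the log2 scale were 0.57 ± 0.19, 1.69 ± 0.18 and 1.1 ± 0.18 (edgeR adjusted p 0.0331, 1.07e-07 and 5.32e-05). The ED17.5 call was lost when any of control replicate 1, control replicate 4, cKO replicate 1 or cKO replicate 2 was left out (adjusted p 0.0668, 0.103, 0.0718 and 0.0771). Col8a1 and Col8a2 encode the short-chain network of vessels and of Descemet's membrane. Col8a2 rose by 0.48, 0.82 and 0.51; Col8a1 rose by 1.01 and 0.61 and had 0.37 ± 0.20 at PND4 (edgeR adjusted p 0.216). Col26a1 rose by 0.71, 1.05 and 0.38. At PND4 Col8a2 and Col26a1 overlapped between genotypes. Col7a1, which forms the anchoring fibrils of skin, was called at no age although every cKO library lay above every control at ED17.5; its log2 fold changes were 0.50, 0.37 and -0.19.

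Added together, collagen transcripts made up 13954 ± 2750 CPM of control libraries and 22996 ± 805 CPM of cKO libraries at ED17.5 (SD, n = 4), 10815 ± 311 and 22164 ± 1460 CPM at PND1, and 13969 ± 2610 and 23513 ± 397 CPM at PND4. The fibrillar sum at PND1 was 5430, 5510, 5094 and 4996 CPM in controls and 13945, 11760, 13218 and 13406 CPM in cKO. The basement membrane sum at PND1 was 1954, 1912, 1982 and 1857 CPM in controls and 2371, 2226, 2388 and 2576 CPM in cKO. Both sums were apart at PND1, the first by more than the second. As a share of all collagen counts, basement membrane chains were 12.2% ± 1.82 in controls and 7.58% ± 0.911 in cKO at ED17.5 (SD, n = 4), 17.8% ± 0.594 and 10.8% ± 0.446 at PND1, and 15.7% ± 1.74 and 10.3% ± 0.65 at PND4. Fibrillar chains were 60.1% ± 2.41 and 64.4% ± 1.55, 48.6% ± 1.63 and 59% ± 1.27, and 50.8% ± 4.21 and 60.4% ± 0.672. The basement membrane sum in ED17.5 cKO was 1671, 1634, 2128 and 1553 CPM, highest in the library labelled replicate 3. Basement membrane shares ran from 7.05% to 8.94% in these cKO libraries and from 9.62% to 13.8% in the controls of that age. All these shares are a description, since a rise of abundant chains lowers the share of the others.

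**Figure D3:**
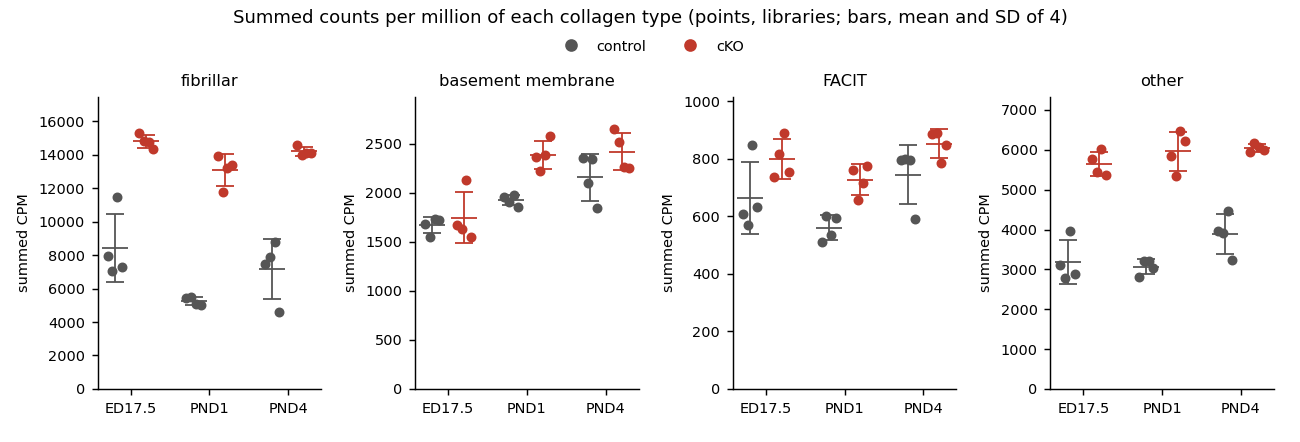
Summed CPM of the 11 fibrillar, 6 basement membrane, 7 FACIT and 17 other collagen genes in each library (points), with mean and SD of 4 libraries; axes start at 0. Fibrillar and other sums of the cKO libraries lie above all controls at every age, while basement membrane sums overlap at ED17.5 and PND4.

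Levels can be compared between genes only per length. Per kilobase of exon, Col3a1 led in controls over all ages (350.6 CPM per kilobase), followed by Col6a1 (194), Col1a1 (174), Col4a1 (127), Col6a2 (113), Col1a2 (105), Col4a2 (98.3) and Col18a1 (92.1), and Col2a1 was last (0.122). With the longest transcript as the length, Col3a1 still led (619), and Col1a2 (244) came next, before Col6a1 (208) and Col1a1 (192), so the order within the leading group depends on the length used. It also differed with age: at ED17.5 Col1a1 (229.7) was above Col6a1 (192.4), and at PND1 Col1a1 (106.1) was below Col4a1 (131.1) and Col18a1 (115.4), while Col3a1 led at each age. The per-length ratio of Col1a1 to Col1a2 was 1.88 ± 0.111 in controls and 2.25 ± 0.113 in cKO at ED17.5 (SD, n = 4), 1.52 ± 0.11 and 2.04 ± 0.0245 at PND1, and 1.46 ± 0.252 and 2.17 ± 0.0476 at PND4. The ratios of the genotypes did not overlap at any age, so the 2 chains did not change by the same factor. The ratio of Col6a3 to Col6a1 was 0.18 ± 0.00529 in ED17.5 controls and 0.206 ± 0.0181 in cKO, with overlap. It was 0.147 ± 0.0194 in PND1 controls and 0.233 ± 0.0166 in cKO, and 0.15 ± 0.0125 and 0.247 ± 0.0158 at PND4. That of Col4a1 to Col4a2 was 1.15 ± 0.0371 and 1.31 ± 0.0667, 1.3 ± 0.0375 and 1.38 ± 0.0431, and 1.4 ± 0.0447 and 1.44 ± 0.0508 at the 3 ages. Its values did not overlap at ED17.5 (1.11 to 1.2 in controls and 1.27 to 1.41 in cKO) and overlapped at PND1 and PND4. Another choice of length scales a ratio alike in all groups but moves its level. With the longest transcript, Col1a1 (192) was below Col1a2 (244) in controls, so which of them is higher depends on the length used.

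The genotype difference itself changed with age for few members. The difference of the log2 fold changes between ages is an interaction in the same edgeR fit. From ED17.5 to PND1 it was called higher for 3 of 41 genes (1.2% of all genes) and lower for 1 (0.665%). These were Col6a5 (1.18 ± 0.20, adjusted p 0.00368), Col28a1 (1.12 ± 0.26, 0.0253) and Col3a1 (0.63 ± 0.17, 0.049), and Col18a1 (-0.70 ± 0.12, 0.00285). Without the library labelled ED17.5 cKO replicate 3 the adjusted p of Col3a1 was 0.0842, and without PND1 cKO replicate 4 the higher calls numbered 1. Without the former library Col4a2 was called as well, at 0.45 (adjusted p 0.0494) in place of 0.34 ± 0.13 (0.181). From PND1 to PND4 edgeR called 0 genes higher and 0 lower (0.0344% and 0.0688% of all genes). At an unadjusted p under 0.05 there were 0 higher and 14 lower (2.44% and 3.32% of all genes), and DESeq2's Wald test called Col11a2 and Col26a1 lower. Col11a2 was also called by edgeR without the library labelled ED17.5 cKO replicate 3, at -1.25 (adjusted p 0.0478) in place of -1.25 ± 0.28 (0.0939). From ED17.5 to PND4 0 were higher (2.8% of all genes) and 4 lower (1.97%). The 4 were Col18a1 (-0.99 ± 0.12, adjusted p 1.59e-05), Col11a2 (-1.21 ± 0.28, 0.012), Col4a4 (-2.1 ± 0.52, 0.0232) and Col4a3 (-1.51 ± 0.42, 0.0392). Without the library labelled ED17.5 cKO replicate 3, Col4a4 was at -1.26 (adjusted p 0.0143) and Col4a3 at -0.88 (0.116). Without PND4 control replicate 5 the lower calls numbered 7. At an unadjusted p under 0.05, 6 were higher and 10 lower between these ages (11.1% and 8.29% of all genes).

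In controls, collagen genes moved with age in both directions. From ED17.5 to PND1 9 of 41 rose and 18 fell, against 25.4% and 27.7% of all genes. From PND1 to PND4 17 rose and 1 fell, against 16.3% and 15.6%. These comparisons share the controls of the genotype comparisons. Among fibrillar genes 1 rose and 7 fell at the first step, and 5 rose and 0 fell at the second. Col1a1 fell by 1.11 from ED17.5 to PND1 and rose by 0.80 from PND1 to PND4 (edgeR adjusted p 0.000714 and 0.0148). Col11a1 fell by 0.39 (adjusted p 0.0246) and then rose by 1.57 (3.82e-08). Col24a1 rose by 1.37 at the first step (1.76e-07). Of the basement membrane genes, Col4a1, Col4a2, Col4a3 and Col4a4 rose at the first step and Col4a5 and Col4a6 fell, and at the second step Col4a3 and Col4a4 rose. Col6a4 rose by 0.95 and 1.02 at the 2 steps (adjusted p 3.43e-07 and 2.66e-07), and Col13a1 fell by 1.59 and 0.49 (9.76e-09 and 0.0284).

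Genes whose products build, bind or cut collagen were taken from 6 lists with 91 genes, of which 86 passed the filter. Of these, 43 were higher and 6 lower in cKO at ED17.5 (35 and 7 without the library labelled replicate 3), 58 and 5 at PND1, and 54 and 4 at PND4. Their medians were 0.33, 0.6 and 0.5 on the log2 scale, and those of all genes tested -0.0072, -0.02 and -0.0015. Of all genes tested, 11.1%, 13.2% and 12.6% were called higher at the 3 ages and 12%, 10.7% and 10.3% lower. Without the library labelled ED17.5 cKO replicate 3 the ED17.5 shares were 9.45% and 11.2%. These shares also apply to each list below. For assembly inside the cell, 10, 15 and 15 of 21 genes were higher at the 3 ages (8 at ED17.5 without that library) and 0 were lower. Serpinh1, the collagen chaperone HSP47, was at 328, 374, 389.6 and 352 CPM in PND1 controls and 588, 493, 557 and 563 CPM in cKO, and it rose by 0.52, 0.61 and 0.47 (edgeR adjusted p 3.83e-05, 3.57e-06 and 0.000129). P3h2, a prolyl 3-hydroxylase, rose by 1.13, 1.53 and 0.99, and Plod2, a lysyl hydroxylase, by 0.65, 0.60 and 0.47. Creb3l1, a transcription factor of collagen secretion, rose by 0.65, 1.03 and 0.34.

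For cleavage of propeptides and crosslinking, 9 of 12 tested genes were higher at each age (7 at ED17.5 without the library labelled cKO replicate 3) and 0 lower. Loxl1, a lysyl oxidase that also acts on elastin, was at 146, 106, 166 and 118 CPM in ED17.5 controls and 262, 222, 232 and 234 CPM in cKO. At PND1 levels were 94.5, 106, 126 and 96.3 CPM in controls and 361, 329.7, 415 and 391 CPM in cKO, and at PND4 167, 162, 193 and 113 CPM in controls and 424, 438, 503 and 417 CPM in cKO. The genotypes did not overlap, and the log2 fold changes were 0.83 ± 0.14, 1.82 ± 0.14 and 1.49 ± 0.14 (edgeR adjusted p 0.000155, 4.36e-09 and 7.47e-08). Adamts2, which removes the N-propeptide of fibrillar chains, rose by 0.77, 1.32 and 0.68, and Bmp1, which removes the C-propeptide, by 0.51, 0.65 and 0.54. Pxdn, which crosslinks type IV collagen, rose by 0.61, 0.88 and 0.63.

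Among 14 fibril partners, 9, 9 and 10 were higher at the 3 ages, and 1, 0 and 0 lower. The ED17.5 counts were 7 and 1 without the library labelled ED17.5 cKO replicate 3. Bgn, a small proteoglycan on fibrils, was at 102, 132, 142 and 129 CPM in PND1 controls and 378, 352, 379 and 358 CPM in cKO, and rose by 0.85, 1.54 and 1.18. Prelp, of the same family, rose by 0.73, 1.59 and 0.94. Thbs2, a matricellular protein, fell by 0.65 at ED17.5 and rose by 0.71 at PND4 (edgeR adjusted p 2.47e-05 and 6.32e-06), with -0.24 ± 0.10 at PND1 (adjusted p 0.0835). Among 15 basement membrane partners, 7, 10 and 6 were higher and 2, 2 and 1 lower, and the ED17.5 counts were equal without that library. The laminin chains split. Lama4, of vessels and stroma, rose by 0.60, 0.90 and 0.89. Lama1, an epithelial chain, was at 286, 263, 268 and 287 CPM in ED17.5 controls and 128, 121, 148 and 114 CPM in cKO, and fell by 1.11, 0.78 and 0.6 at the 3 ages (edgeR adjusted p 6.17e-07, 3.48e-05 and 0.000771). Lama3 fell by 1.64 at ED17.5 and 0.69 at PND1.

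Of 10 collagen receptors, 3, 7 and 6 were higher and 1, 1 and 2 lower (2 and 1 at ED17.5 without the library labelled cKO replicate 3). Mrc2, an endocytic receptor for collagen fragments, rose by 0.92, 1.45 and 1.04. Adgrg1, an adhesion receptor that binds type III collagen, was at 194, 224, 220 and 217 CPM in PND4 controls and 109.9, 87.4, 69.9 and 84.6 CPM in cKO. It fell by 0.88, 1.07 and 1.28 at the 3 ages (edgeR adjusted p 4.18e-05, 2.43e-06 and 2.69e-07), opposite in sign to Col3a1. Of 14 tested turnover genes, 5, 8 and 8 were higher and 2, 2 and 1 lower (4 and 3 at ED17.5 without that library). Mmp2, a gelatinase, rose by 0.66, 1.18 and 0.97, and Mmp14, the membrane protease that activates it, by 0.58, 1.0 and 0.94. Mmp15, a relative of Mmp14, was at 95.2, 115, 121 and 129 CPM in PND1 controls and 45.3, 37.2, 42.2 and 39.3 CPM in cKO and fell by 1.06, 1.49 and 1.33 (edgeR adjusted p 9.28e-06, 7.5e-08 and 4.71e-07).

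**Figure D4:**
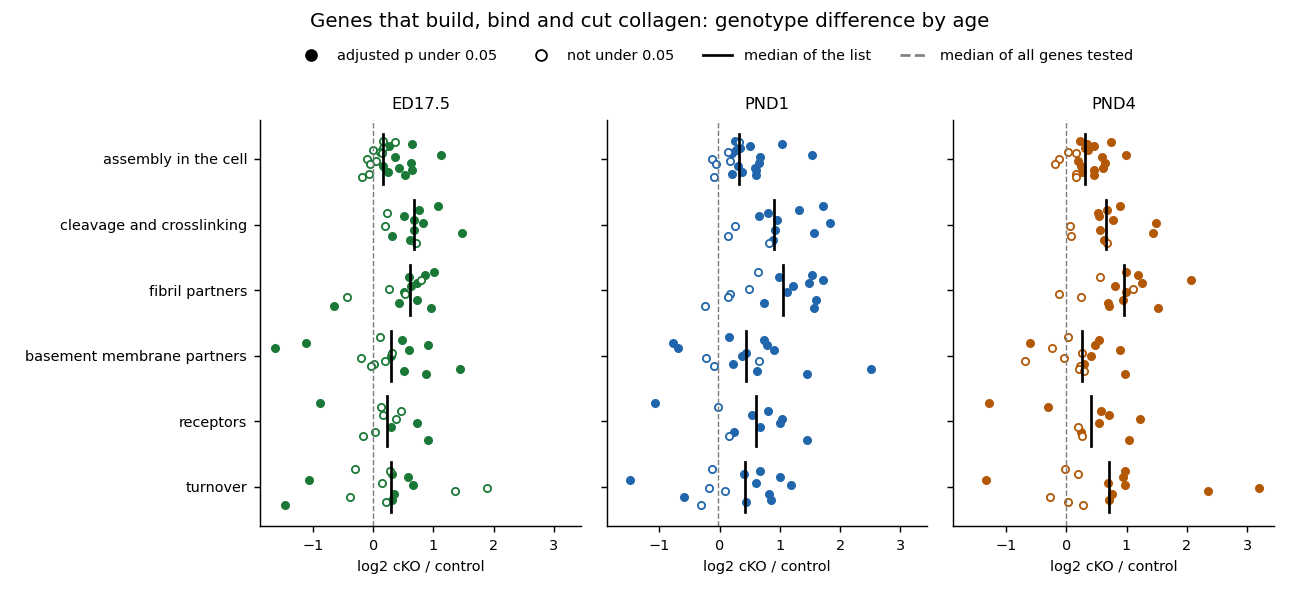
Log2 fold change (cKO against control) of the tested genes of 6 lists at 3 ages; filled points passed the edgeR test at an adjusted p under 0.05, black lines are list medians and the dashed line the median of all genes tested. Medians of cleavage and crosslinking genes were 0.68, 0.9 and 0.65, and those of genes for assembly in the cell 0.17, 0.33 and 0.31.

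Markers of several cell types moved with genotype as well, and their part in the collagen results was not tested. Which cells made the collagen transcripts was not measured. Of all genes tested, 11.1%, 13.2% and 12.6% were called higher at the 3 ages and 12%, 10.7% and 10.3% lower. Of 10 theca and stroma markers, 7, 7 and 5 were higher in cKO at the 3 ages and 0, 0 and 1 lower. Their summed level was 1044 to 1220 CPM in controls and 1544 to 2212 CPM in cKO at ED17.5 (1544 to 1672 without the library labelled replicate 3), 724 to 848 and 1175 to 1195 CPM at PND1, and 891 to 1146 and 1211 to 1395 CPM at PND4. Of 8 endothelial markers, 5, 8 and 8 were higher, with sums of 438 to 484 CPM in controls and 595 to 663.5 CPM in cKO at ED17.5 (595 to 622 without that library), 298 to 338 and 525 to 545 CPM at PND1, and 300.2 to 394 and 552 to 655 CPM at PND4. Of 8 smooth muscle and pericyte markers 3, 7 and 5 were higher, and of 8 macrophage markers 7, 7 and 8. Of 7 pregranulosa markers 6, 5 and 4 were lower, with sums of 758 to 990.5 CPM in controls and 378 to 509.8 CPM in cKO at ED17.5 (433 to 509.8 without that library). Of 7 cartilage markers, 4 passed the filter, 0 were higher at any age and 1, 1 and 0 were lower, and their sums overlapped between genotypes at each age. Germ cell markers, present in every library, showed 1, 0 and 0 of 5 higher and 0, 0 and 1 lower. Surface epithelium markers showed 0, 2 and 2 of 7 higher and 3 lower at each age. None of these lists had a gene at 0 in all libraries of a group.

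**Figure D5:**
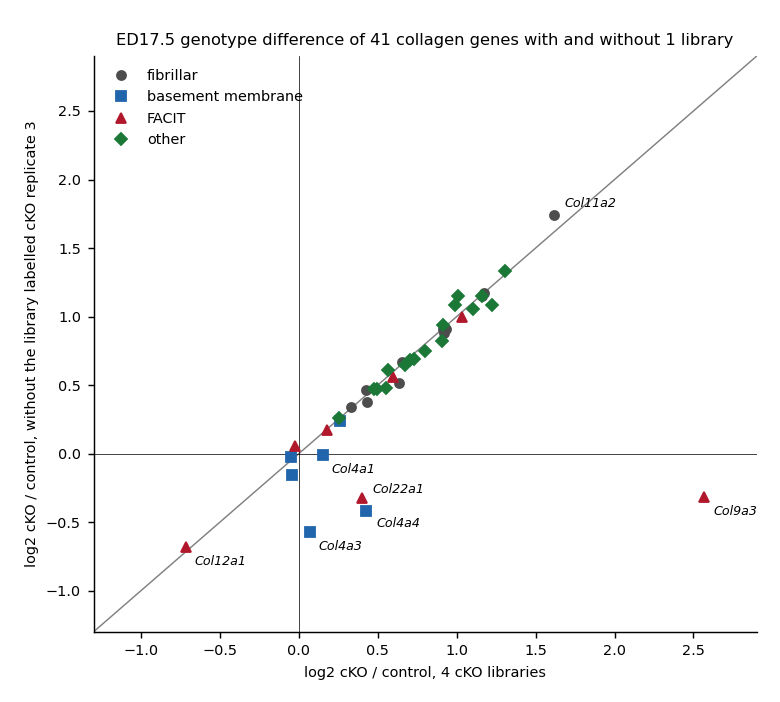
Log2 fold change of the 41 collagen genes at ED17.5 from all 4 cKO libraries (horizontal) and without the library labelled cKO replicate 3 (vertical), with the line of equal values; symbols mark the type. Most genes lie on the line, and Col9a3 (2.57 and -0.32), Col4a4 (0.43 and -0.42), Col4a3 and Col22a1 lie below it.

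The library labelled ED17.5 cKO replicate 3 decided few of the ED17.5 calls. Without it Col9a3 and Col17a1 lost the ED17.5 call, and the other 25 higher calls and the lower call of Col12a1 remained. The sign changed for Col9a3, Col4a1, Col4a3, Col4a4, Col20a1 and Col22a1, of which only Col9a3 had been called. In that library Col22a1, a FACIT chain of tissue junctions, was at 7.52 CPM against 1.85 to 2.43 CPM in the other cKO libraries.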

How the data were processed

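The deposited table holds raw counts per gene for 24 libraries, which the authors made with a directional poly(A) kit, per the labels' protocols. Trimmomatic, STAR, HTSeq, DESeq2 and GRCm38 are named in the submitters' processing notes without versions, and the strand setting of the counting is not given in the sources used here. Groups were taken from the labels. The collagen genes, the companion lists and the marker lists were chosen with earlier results of these data known. Genes with enough counts (filterByExpr, minimum count 10, minimum total 15; 17435 genes) were tested with edgeR 4.0.16 (R 4.3.3) by a robust quasi-likelihood fit of group means over all 24 libraries, with TMM factors of 0.9684 to 1.017. Adjustment followed Benjamini and Hochberg, over all genes tested. Standard errors are the log2 fold change divided by the square root of F. Exact permutation tests used log2 CPM with a prior count of 2. The test was tried on simulated data. Replicate pairs of a group differed by more than sampling noise (chi-square per degree of freedom 3.162 to 21.65 over 36 pairs), so each library counts as 1 replicate.

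Members described with their values (per library, as a range or as fold changes) were chosen by rule: 2 of each type with the highest level per length in controls; the 4 largest rises and falls past the threshold at each age with a mean of at least 1 CPM; and the 2 smallest p-values of each interaction and control comparison. Up to 4 companion genes per list and age with the smallest p were eligible. Other members described were chosen after their values were seen. Equal replicate numbers were not taken to pair the libraries. The labels tie them to no shared litter, batch or day, although they follow runs of library number (replicate 4 at 1 to 6, 2 at 7 to 12, 3 at 13 to 18, the rest at 19 to 24), and the deviations of 11 such pairs correlated at -0.384 to 0.222. Alternatives were DESeq2 1.42.0 and its size factors, no filter, each age alone, the replicate block, a term for library number, and each library left out. Fits within library numbers 1 to 12 and 13 to 24 (2 libraries of each group in each) were added after seeing the data.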

Additional observations from a re-analysis of the deposited data

Results flagged for a closer look

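In 17 of 168 groups of 4 libraries, the gap of the highest or lowest library to its nearest neighbour, divided by the range of the group, was above Dixon's critical value. Chance gives about 1 in 20 in independent groups. These groups come from the same libraries and some are sums of genes, so they are not independent and no conclusion is drawn from their number. The library labelled ED17.5 cKO replicate 3 stood above its group in Col4a1 (1078 CPM), Col4a4 (28.17 CPM) and Col9a3 (99.63 CPM). ED17.5 control replicate 3 stood above the other controls in Col3a1 (5405 CPM), Col14a1 (177.7 CPM), Col16a1 (282.9 CPM), Col6a1 (1074 CPM) and Col6a6 (110.3 CPM). PND4 control replicate 5 stood below the others in Col14a1 (40.56 CPM) and in the summed FACIT genes (590.2 CPM). Among cKO libraries, PND4 replicate 1 was high in Col1a1 (3086 CPM), PND4 replicate 2 in Col24a1 (14.59 CPM), PND1 replicate 2 low in Col12a1 (173.7 CPM) and ED17.5 replicate 4 low in Col13a1 (54.81 CPM). PND1 control replicate 1 was high in Col9a3 (41.4 CPM) and low in Col6a1 (605.1 CPM), and PND4 control replicate 3 was low in Col9a3 (29.81 CPM).

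The genotype difference changed between ages in 8 tests of the difference itself (edgeR interaction). From ED17.5 to PND1 it grew for Col6a5 (1.177), Col28a1 (1.122) and Col3a1 (0.6277) on the log2 scale and changed by -0.699 for Col18a1. From ED17.5 to PND4 it changed by -0.9925 for Col18a1, -1.207 for Col11a2, -2.101 for Col4a4 and -1.515 for Col4a3. The last call was lost without the library labelled ED17.5 cKO replicate 3 (-0.8782, adjusted p 0.116), as was that of Col3a1 (0.6067, adjusted p 0.0842).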

How the results depend on the processing

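Of 3967 values recomputed for 124 called differences of named genes, 3885 kept direction and call, 80 lost the call and 2 reversed; of 638 for 20 uncalled ones, 593 stayed, 29 passed the threshold and 16 reversed. The cause of the changes below was not tested, except that the fits within library numbers hold 2 libraries a group.

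In libraries 13 to 24 alone, 10 collagen genes were higher at ED17.5 (1.19% of all genes), and on PND1 and PND4 0 were lower (3.25% and 2.87% of all genes). Companion genes higher and lower there numbered 8 and 2 at ED17.5, 37 and 2 on PND1, and 30 and 2 on PND4 (all genes: 1.19% and 1.82%, 4.97% and 3.25%, 4.16% and 2.87%). In libraries 1 to 12 alone, 3 collagen genes were lower at PND1 (9.14% of all genes) and 5 at PND4 (11.6%), and 8 companion genes were lower at PND1. Collagen genes lower at PND1 numbered 2 with DESeq2 size factors, 3 with the DESeq2 Wald test, 4 with that age alone, and 0 (without PND1 cKO replicate 2) to 4 (without ED17.5 cKO replicate 3) with 1 library left out. The replicate block gave 5 lower at PND4 in place of 3, Col9a2 among them at -0.4556 (edgeR adjusted p 0.00357). Under it Col18a1 was called at PND1 (0.2091, edgeR adjusted p 0.00901) and Col6a4 was not called at PND4 (0.2629, 0.0756). PND4 control replicate 5 and PND4 cKO replicate 1 have no partner of equal number, so the block takes both out of the PND4 comparison. Its PND4 results are therefore not separate from leaving out these libraries. Of 11 library pairs with equal numbers, 5 correlated best with their own number. For the genotype effect from PND1 to PND4, 1 gene was lower with DESeq2 size factors, 2 without the filter, 2 with the DESeq2 Wald test and 0 to 3 with 1 library left out (3 without PND4 control replicate 5). Leaving out 1 library gave 1 to 4 genes higher from ED17.5 to PND1, 0 to 1 higher and 3 to 7 lower from ED17.5 to PND4, and 0 to 2 lower in controls from PND1 to PND4.

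Signs reversed for Col11a2 at PND4 (-0.01068 in libraries 13 to 24), for Col4a2 at ED17.5 (0.07499 in libraries 13 to 24) and PND4 (-0.005146 in libraries 1 to 12), and at ED17.5 in libraries 1 to 12 for Col4a3 (-0.4893), Col4a4 (-0.5983) and Col9a3 (-0.3937). Col4a3 at ED17.5 was at -0.09202 with the replicate block. Col9a3 at PND4 was at -0.003763 with DESeq2 size factors, -0.01962 without the filter and -0.1443 in libraries 13 to 24. With 1 library left out, ED17.5 values ran from -0.006577 to 0.2173 for Col4a1, -0.157 to 0.01245 for Col4a2, -0.5704 to 0.3217 for Col4a3, -0.4167 to 0.633 for Col4a4 and -0.3185 to 2.957 for Col9a3, and the PND4 value of Col9a3 from -0.1009 to 0.1007. Genes with few counts, such as Col2a1 (1 to 50 per library), allow no small difference to be seen.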
